A study of Mus musculus with 12 samples.

Results

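The 43 genes described here encode the secreted proteins of complement, clotting and fibrinolysis that hepatocytes make, together with their secreted inhibitors. They were chosen by name for what they encode, out of 17871 genes in the table, and all 43 were found in it. Liver RNA was sequenced from 12 male mice, 3 in each of 4 groups, of a strain the labels spell IRC mouse. A0 mice received water, and A10 mice received alginate oligosaccharide (AOS), a short-chain sugar made from brown algae, by gavage at 10 mg/kg a day for 5 weeks. BA0 mice received a single intraperitoneal injection of busulfan, an alkylating drug that crosslinks DNA, at 40 mg/kg, and then water. BA10 mice received the same injection and then AOS at 10 mg/kg. Mice were 3 weeks old at the start. The labels number 3 libraries in each group, and p-values measure the spread between these libraries. The tissue label reads only Cells, while the protocol names liver, and 7 hepatocyte genes in the table, among them Alb and Apob, summed to 84287 to 111669 CPM, which are counts scaled to a common library size, in every library.

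Complement is a cascade of plasma proteases that tags and lyses microbes. The lectin pathway starts when mannose-binding lectins bind sugars and their partner proteases cut C4 and C2, the classical pathway starts with C1, and both converge with the alternative pathway on C3. Cleaved C5 then assembles C6, C7, C8 and C9 into the membrane attack complex. Clotting runs through a similar chain of zymogens to thrombin, which turns fibrinogen into fibrin, and plasmin dissolves the clot. Nearly all of these proteins come from hepatocytes, and many are acute phase proteins whose transcription responds to interleukin-6.

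The start regions of the 3 fibrinogen chains are shown because the 3 transcripts moved together from mouse to mouse, and those of F5, Klkb1 and Mbl2 because these were the members called in a test. Each line gives the 250 bases before the RefSeq start site (GRCm38.p6), 5′ to 3′ on the gene's strand, with matches to 4 motifs in capitals. The motifs were CTGGGAA, the core of the interleukin-6 response element, and GTTAAT, a partial site of HNF1. The others were TTGCNNAA, a loose pattern of C/EBP sites, and CAAAGTCCA, an HNF4-type site. Both strands were searched, and no 2 matches overlapped. The regions were chr3:83025903-83026152 (+ strand) for Fga, chr3:83049864-83050113 (- strand) for Fgb, chr3:83007474-83007723 (+ strand) for Fgg, chr1:164151585-164151834 (+ strand) for F5, chr8:45294836-45295085 (- strand) for Klkb1 and chr19:30232678-30232927 (+ strand) for Mbl2.
Fga: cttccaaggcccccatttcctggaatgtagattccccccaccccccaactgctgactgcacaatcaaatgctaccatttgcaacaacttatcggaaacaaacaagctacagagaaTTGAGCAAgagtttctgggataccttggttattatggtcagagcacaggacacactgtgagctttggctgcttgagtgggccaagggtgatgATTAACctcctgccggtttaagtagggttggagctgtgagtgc
Fgb: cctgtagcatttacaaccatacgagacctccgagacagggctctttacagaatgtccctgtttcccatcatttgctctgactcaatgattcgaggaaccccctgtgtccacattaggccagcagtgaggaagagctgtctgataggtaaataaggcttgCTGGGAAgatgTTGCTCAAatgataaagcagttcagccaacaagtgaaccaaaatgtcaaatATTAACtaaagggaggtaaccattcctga
Fgg: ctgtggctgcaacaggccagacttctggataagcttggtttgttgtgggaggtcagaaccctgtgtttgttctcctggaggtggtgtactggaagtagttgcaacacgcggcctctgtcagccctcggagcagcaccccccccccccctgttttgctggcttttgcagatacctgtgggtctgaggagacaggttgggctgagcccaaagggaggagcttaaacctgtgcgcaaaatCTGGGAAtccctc
F5: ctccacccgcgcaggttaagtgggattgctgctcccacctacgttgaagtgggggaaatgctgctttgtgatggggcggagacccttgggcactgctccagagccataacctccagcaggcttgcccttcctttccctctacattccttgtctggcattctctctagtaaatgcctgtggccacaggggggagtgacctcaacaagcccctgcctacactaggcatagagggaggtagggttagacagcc
Klkb1: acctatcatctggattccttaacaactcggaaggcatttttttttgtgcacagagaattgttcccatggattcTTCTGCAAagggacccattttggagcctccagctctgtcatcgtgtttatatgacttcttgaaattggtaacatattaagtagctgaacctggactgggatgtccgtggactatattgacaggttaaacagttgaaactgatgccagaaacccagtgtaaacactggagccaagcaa
Mbl2: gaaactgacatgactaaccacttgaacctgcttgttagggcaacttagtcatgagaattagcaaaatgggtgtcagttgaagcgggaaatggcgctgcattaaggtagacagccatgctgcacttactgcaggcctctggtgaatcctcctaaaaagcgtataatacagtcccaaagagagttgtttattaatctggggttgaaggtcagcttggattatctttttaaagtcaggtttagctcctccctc

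The interleukin-6 core lay 91 bases before the start of Fgb and 13 bases before that of Fgg. The HNF1 letters lay 43 bases before the start of Fga and 29 before that of Fgb. The C/EBP letters were found 135 bases before Fga, 80 before Fgb and 177 before Klkb1. The regions of F5 and Mbl2 held none of the 4 motifs in these letters. Of the 33 members with a start region in the RefSeq table, 6 held CTGGGAA, which 9.1% of all 32851 regions in the table held. GTTAAT was held by 9 members (27.3%) and 6.43% of all regions, TTGCNNAA by 8 (24.2%) and 9.56%, and CAAAGTCCA by 0 and 0.384%. The member percentages count genes, while those of the whole table count regions. The 33 members had 36 regions, of which 6, 9, 8 and 0 held the motifs in this order. A match is a run of letters and was not measured as a binding site.

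Libraries held 16439508 to 18174590 estimated counts, and the members took 4.23% to 4.99% of them. A0 replicates 1 and 2 stood apart from the other libraries. Their TMM scaling factors were 0.851 and 0.879, against 0.97 to 1.08 in the other 10, and 22% and 13.5% of the variance of their log counts followed the length and base composition of genes, against 0.304% to 5.5% elsewhere. F5 and Klkb1, the members edgeR called against A0 with all libraries, are therefore also given without both and with the length and GC trends removed. Members called against A0 only by DESeq2, or only with a library left out, are given below without these 2 checks. Without both, which leaves 1 A0 library, 1 gene of 13429 was called in each comparison with A0, and no member or other clotting, complement or regulator gene named below was. A0 replicate 1 also had the highest Saa1, an acute phase gene, at 220 CPM against 19.1 to 46.9 CPM in the other 11. BA0 replicate 2 held pancreatic transcripts, with Amy2a5 at 137 CPM against 0 to 4.7 CPM elsewhere. Lung markers summed to 0.535 to 1.27 CPM in A0 and 6.32 to 9.7 CPM in the other groups. Scaling mattered too: with RPKM, which is scaled by library totals, the median of all genes in BA0 vs A0 was 0.18 on the log2 scale, while with TMM it was 0.03. In bulk liver, fewer cells of a type cannot be told apart from less RNA per cell.

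Per length, mean levels ran from 3274 RPKM for Fgb down to 0.102 for Cfd. RPKM (reads scaled by transcript length and library total) is the scale on which genes can be compared with each other. The 3 fibrinogen chains were the most abundant, with mean levels of 3274 RPKM for Fgb, 2896 for Fgg and 2229 for Fga. C3, the hub of complement, followed at 1702 RPKM, then Vtn, which encodes vitronectin, a blocker of the membrane attack complex, at 1166. Serpinc1, which encodes antithrombin, had 1144 RPKM and Kng1, the kininogen of the contact pathway, 1081. The neighbours Vtn and Serpinc1 overlapped between mice, at 995 to 1389 and 1041 to 1246 RPKM. At the lower end were Cfb, which encodes factor B, at 13.7, Pros1, which encodes protein S, at 14.0, C2 at 12.3 and Tfpi, the tissue factor pathway inhibitor, at 4.01 RPKM. Cfd, which encodes factor D and is known mainly from fat tissue, was close to absent, with 0 counts in 9 livers and 1, 3 and 12 counts in the other 3. It did not pass the filter on low counts, so 42 members were tested. The level of Masp2 rests on a transcript length of 954 bases implied by the table, shorter than the 3307 exonic bases of the gene, whose locus also gives a short form.

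**Figure D1:**
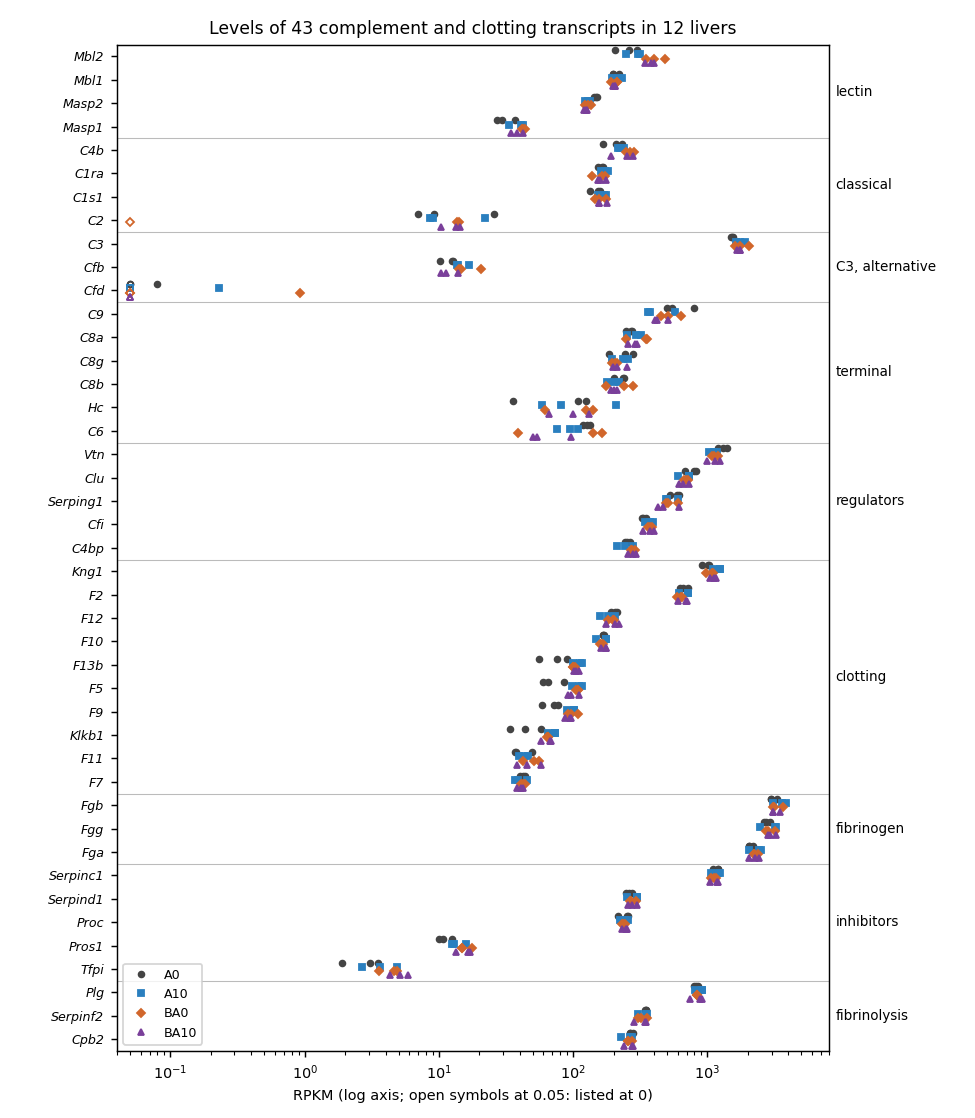
RPKM on a log axis of each of the 43 members, grouped by role, in each of the 12 mice, coloured by group, with open symbols for values listed at 0. The fibrinogen chains lie highest and Cfd lowest, and for most members the 4 groups lie on top of each other, while C2, Hc and C6 spread widely within groups.

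Most members varied little between mice of a group. The within-group SD on the log2 scale was 0.08 for Cfi, Kng1 and Serpinc1, at the 3.49th to 4.13th percentile of all tested genes, and between 0.08 and 0.24 for 37 of the 42 tested members. The other 5 were Tfpi (0.33), C9 (0.35), C6 (0.63), Hc (0.78) and C2 (2.45), the last at the 99.8th percentile of all tested genes. Cfi, the protease that inactivates C3b and C4b, lay between 650 and 740 CPM in all 12 mice, a range of 1.14-fold, while Hc, the mouse gene of C5, spanned 4.87-fold. CPM values here are scaled by TMM.

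Compared to A0, busulfan alone (BA0) increased 1 of the 42 members, F5, and decreased none by edgeR's quasi-likelihood test at a Benjamini-Hochberg adjusted p under 0.05 over all 12896 genes tested. Over all genes 4.09% were called higher and 2.3% lower. AOS alone (A10) increased 2 members, F5 and Klkb1, and decreased none, with 2.14% of all genes called higher and 1.5% lower. An unadjusted p under 0.05 was found for 18 members in BA0 (42.9%, against 28.5% of all genes) and 12 in A10 (28.6%, against 24.9%). The same 3 A0 mice served as controls in both comparisons, so they are not independent. No member was called in BA10 vs A0, where 6.95% of all genes were called higher and 3.19% lower. There 17 members (40.5%, against 30.2% of all genes) had an unadjusted p under 0.05 by edgeR, and DESeq2 called 8 (14.4% of all genes). No member was called in the test of any difference among the 4 groups, where 3.39% of all genes were called, 9 members (21.4%, against 24.8%) had an unadjusted p under 0.05 and DESeq2 called 7 (13.9% of all genes).

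The members' differences from A0 were small. In BA0 vs A0 the median log2 fold change of the 42 members was -0.11, against 0.03 over all genes, with 14 above 0 and 28 below, and 39 lay within 0.5 of 0. In A10 vs A0 the median was -0.09 (13 above 0) and in BA10 vs A0 -0.14 (10 above 0). The direction of these medians turned with the scaling: on RPKM they were 0.08, 0.09 and 0.07, each still below the median of all genes, at 0.18, 0.17 and 0.18. The 3 BA0 mice lay above all 3 A0 mice for 8 members (19.0%, against 18.8% of all genes) and below them for 9 (21.4% against 15.4%). For A10 these counts were 4 (9.52% against 14.2%) and 4 (9.52% against 11.7%), and for BA10 7 (16.7% against 19.1%) and 12 (28.6% against 15.7%).

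**Figure D2:**
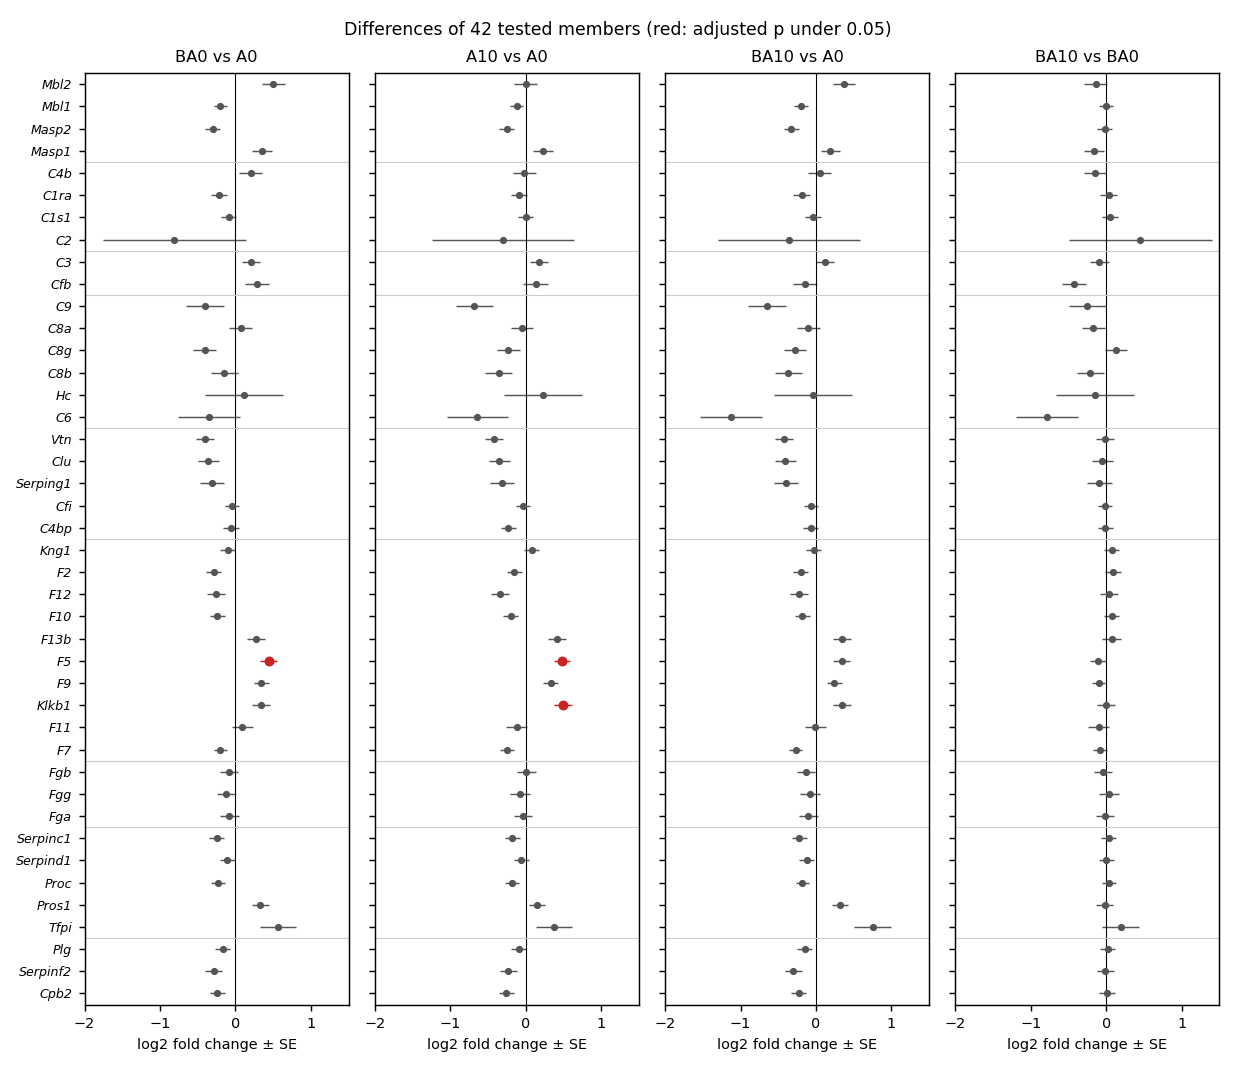
Log2 fold change with its standard error for the 42 tested members in 4 comparisons, by role, with members called at an adjusted p under 0.05 in red. F5 is red in BA0 vs A0 and in A10 vs A0, Klkb1 in A10 vs A0, and the BA10 vs BA0 panel has 38 members within 0.25 of 0.

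Among the clotting factors, F5 and Klkb1 were higher in each treated group than in A0. F5 encodes factor V, the cofactor of factor Xa, and lies on chr1:164151838-164220277. Its level was 514, 535 and 617 CPM in the A0 mice, 699, 782 and 839 in A10, 760, 757 and 746 in BA0, and 729, 629 and 745 in BA10. All 9 treated mice lay above all 3 A0 mice. Compared to A0, F5 was increased 1.36-fold in BA0 (0.44 ± 0.11 on the log2 scale, with its standard error, and adjusted p = 0.0425). In A10 it was increased 1.39-fold (0.48 ± 0.11, adjusted p = 0.0445). BA10 at 0.34 ± 0.11 did not pass edgeR's test (adjusted p = 0.0703), while DESeq2 called F5 higher in each treated group. With the length and GC trends of the libraries removed, the differences were 0.24 in BA0 (adjusted p = 0.191) and 0.30 in A10 (0.169), and without A0 replicates 1 and 2 they were 0.26 (0.599) and 0.31 (0.759), so neither was called. The BA0 call held without A0 replicate 3 (adjusted p = 0.0164), A10 replicate 1 (0.0463) or A10 replicate 3 (0.0313), and was lost without any 1 of the other 9 libraries, at adjusted p of 0.0514 to 0.151, with the highest without A0 replicate 2. The A10 call held only without A0 replicate 3 (0.0138) and was lost without any 1 of the other 11, at 0.0593 to 0.168.

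Klkb1 encodes plasma prekallikrein, the zymogen that activates factor XII and frees bradykinin from kininogen, and lies on chr8:45266689-45294859. It had 202, 252 and 292 CPM in A0, 363, 361 and 325 in A10, 326, 309 and 312 in BA0, and 302, 322 and 324 in BA10. Again every treated mouse was above every A0 mouse. The increase was 1.41-fold in A10 (0.49 ± 0.12, adjusted p = 0.049), while BA0 and BA10, at 0.34 ± 0.12 and 0.35 ± 0.12, did not pass (adjusted p = 0.0948 and 0.0873). The A10 difference was 0.29 (0.187) with the trends removed and 0.24 (0.759) without A0 replicates 1 and 2. It was called without A0 replicate 3 (0.0114), and without any 1 of the other 11 libraries adjusted p was 0.0688 to 0.17, with the highest without A0 replicate 2.

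F9 and F13b showed the same order without passing edgeR's test, while DESeq2 called F9 in BA0 and both in A10. F9, the haemophilia B factor, had 179, 212 and 198 CPM in A0, 256, 254 and 230 in A10, 249, 269 and 226 in BA0, and 232, 232 and 231 in BA10. All treated mice were above all A0 mice, with log2 fold changes of 0.34 in BA0 (adjusted p = 0.0551), 0.33 in A10 (0.0715) and 0.24 in BA10 (0.12). F13b, the carrier subunit of the fibrin-crosslinking factor XIII, had 146 to 199 CPM in A0 and 212 to 252 CPM in the treated mice. F2, F7, F10 and F12 lay below A0 under TMM. F2, the prothrombin gene, had 1385, 1535 and 1250 CPM in A0 against 1182, 1163 and 1066 in BA0 (-0.29, adjusted p = 0.1), but on RPKM the 2 groups overlapped, at 620 to 710 and 593 to 642. F7, F10 and F12 had log2 fold changes of -0.20, -0.24 and -0.26 in BA0 vs A0, and F11 and Kng1 of 0.09 and -0.10. On RPKM the mean of F7 was 42.2 in A0 and 42.4 in BA0. None of these 6 passed edgeR's test, and DESeq2 called F2 in BA0 vs A0 and F12 in A10 vs A0. Kng1 has a close copy, Kng2, at 188 to 247 CPM, and reads may be split between them.

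**Figure D3:**
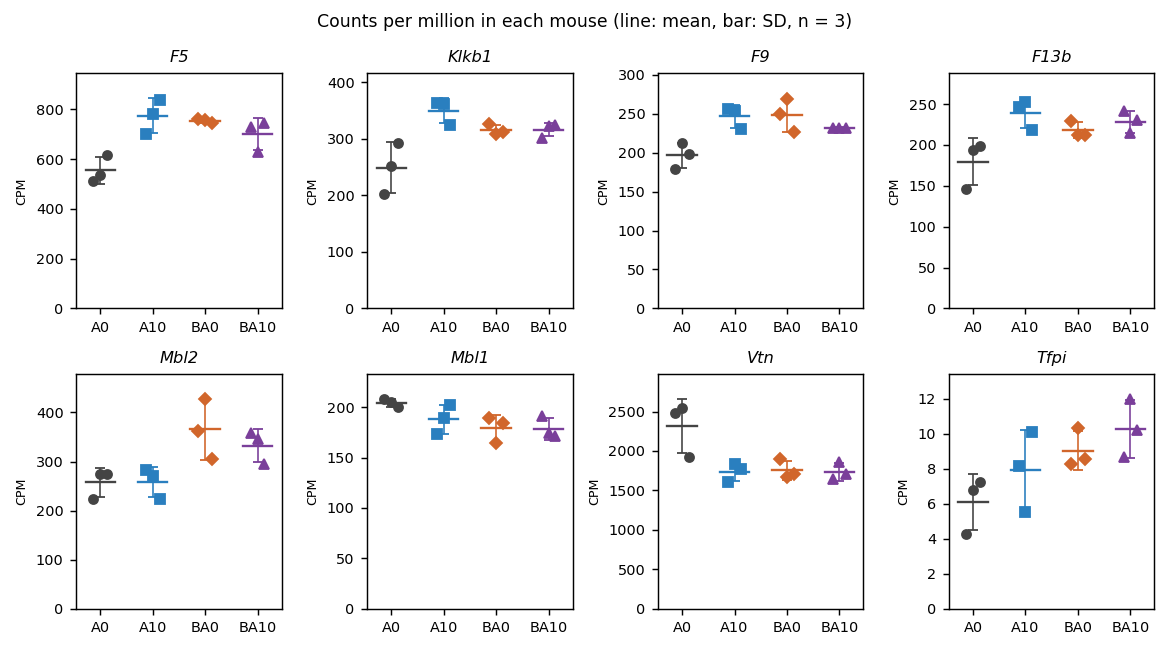
CPM of F5, Klkb1, F9, F13b, Mbl2, Mbl1, Vtn and Tfpi in every mouse, with a line at the group mean and a bar of 1 SD (n = 3). F5, Klkb1, F9 and F13b are lowest in A0, Vtn is highest there, and Mbl2 is higher in the 6 busulfan mice than in the 6 others.

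In the lectin pathway, Mbl2 separated the mice by busulfan and not by AOS. Mbl2 and Mbl1 encode the mannose-binding lectins C and A, which bind sugars on microbes. Mbl2, on chr19:30232942-30239687, had 224, 275 and 275 CPM in A0 and 282, 270 and 224 in A10, against 363, 428 and 305 in BA0 and 358, 346 and 294 in BA10. All 6 busulfan mice lay above all 6 mice without busulfan, which held for 0.76% of all genes in this direction and 0.62% in the other. Busulfan pooled over AOS, a comparison of 6 mice against 6 chosen after seeing the data, gave a 1.35-fold increase (0.43 ± 0.10, adjusted p = 0.0472), and Mbl2 was the 1 member called in it, where 2.43% of all genes were called higher and 0.845% lower.

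In the groups taken singly, Mbl2 was 0.50 ± 0.15 above A0 in BA0 (adjusted p = 0.0592) and 0.37 ± 0.15 above A0 in BA10 (0.12) by edgeR. DESeq2 called the BA0 difference but not that of BA10. Among AOS-fed mice, BA10 was 0.36 ± 0.15 above A10 (0.486), a comparison without A0 mice. A10 vs A0 gave 0.00, with an approximate 95% interval of -0.32 to 0.32. Removing the length and GC trends, which lowered the F5 difference, raised that of Mbl2 in BA0 vs A0 to 0.63 (adjusted p = 0.047). The pooled call held without A0 replicate 3 (0.0429) or A10 replicate 3 (0.0462) and was lost without any 1 of the other 10 libraries, at adjusted p of 0.0527 to 0.124, with the highest without BA10 replicate 1 and with a log2 fold change of 0.37 to 0.49. Without A0 replicates 1 and 2 together it was 0.37 (0.307).

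Mbl1 leaned slightly the other way under TMM, with 200 to 208 CPM in A0, 173 to 202 in A10, 164 to 189 in BA0 and 171 to 191 in BA10 (BA0 vs A0 -0.20, adjusted p = 0.18). On RPKM its mean was 205 in both A0 and BA0. The ratio of Mbl1 to Mbl2 within a mouse, in RPKM, was 0.822 ± 0.125 (SD, n = 3) in A0 and 0.755 ± 0.161 in A10, against 0.511 ± 0.111 in BA0 and 0.547 ± 0.0353 in BA10. The 6 busulfan mice had ratios of 0.391 to 0.611 and the others of 0.616 to 0.966. The partner proteases also differed in sign. Masp1 had 100, 86.5 and 106 CPM in A0, 119, 97.3 and 126 in A10, 123, 120 and 131 in BA0, and 115, 95.8 and 123 in BA10. BA0 lay above A0 without overlap (0.35, adjusted p = 0.0976). Masp2 had 135 to 158 CPM in A0, 117 to 124 CPM in BA0 and 111 to 133 CPM over all treated mice. By edgeR it was -0.30 in BA0 vs A0 (adjusted p = 0.0726) and -0.33 in BA10 vs A0 (0.0519, the smallest of the members there). DESeq2 called Masp2 lower in both.

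No classical pathway component was called in any comparison by edgeR or DESeq2. C1ra and C1s1 encode the proteases of C1. C1ra had 477, 499 and 427 CPM in A0, 407, 465 and 442 in A10, 428, 349 and 428 in BA0, and 411, 432 and 385 in BA10, so the groups overlapped (BA0 vs A0 -0.22 ± 0.11, adjusted p = 0.208). C1s1 stayed between 403 and 483 CPM in all 12 mice. Their close copies C1rb and C1s2 had 5.18 to 7.86 and 71.8 to 93.4 CPM, and reads that fit both copies make each value uncertain.

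C4b had 1434, 1004 and 1083 CPM in A0, 1105, 1136 and 1230 in A10, 1284, 1425 and 1327 in BA0, and 1030, 1379 and 1229 in BA10 (BA10 vs BA0 -0.15 ± 0.15, adjusted p = 1). Its copy C4a, known as the sex-limited protein, took 3.49% to 21.8% of the counts of both, with the highest share in A0 replicate 2. Summed, C4b and C4a had 1344 ± 180 CPM in A0, 1226 ± 51.8 in A10, 1448 ± 26.7 in BA0 and 1307 ± 151 in BA10. The order of the group means was that of C4b alone except that BA10 and A0 changed places.

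C2, the protease subunit of the C3 convertase, varied more than any other tested member. It was listed at 26.9, 73.9 and 17.5 CPM in A0, 22.1, 53.2 and 21.0 in A10, 33.7, 0 and 33.9 in BA0, and 34.7, 24.4 and 33.3 in BA10. The 0 in BA0 replicate 2 stands where 3 counts would be 0.174 CPM, in a library whose neighbour Cfb had 53.7 CPM, the highest of the 12. The gene lies on chr17:34862604-34898265, where the annotation also has Zbtb12 on the other strand and the read-through Gm20547, and its estimated counts carried decimals. A failed estimate and an absent transcript cannot be told apart here. BA0 vs A0 was -0.81 ± 0.95 with that mouse and -0.22 ± 0.55 without it.

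C3 had 6212 to 7139 CPM in A0, 7064 to 7915 in A10, 6747 to 8828 in BA0 and 6867 to 7622 in BA10, and its differences from A0 were 0.21, 0.17 and 0.12, none called. Cfb, the alternative pathway protease, gave the smallest p of the members in BA10 vs BA0. It had 41.3, 33.3 and 33.9 CPM in A0, 43.6, 37.0 and 38.2 in A10, 40.8, 53.7 and 37.3 in BA0, and 30.3, 38.9 and 28.7 in BA10. BA10 and BA0 overlapped, and the log2 fold change of -0.43 ± 0.16 (edgeR adjusted p = 0.99) was -0.26 without BA0 replicate 2.

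In the terminal pathway, Hc and C6 had the widest spread between mice after C2. Hc had 224, 752 and 576 CPM in A0, 421, 302 and 1092 in A10, 653, 316 and 704 in BA0, and 543, 330 and 640 in BA10. Each group held a mouse at or below 330 CPM and one at or above 640, so the groups overlapped fully, and BA0 vs A0 was 0.11 ± 0.52.

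C6, which binds C5b first, had 373, 404 and 332 CPM in A0, 197, 274 and 242 in A10, 424, 98.6 and 349 in BA0, and 137, 135 and 236 in BA10. All A10 and BA10 mice lay below all A0 mice, while 2 BA0 mice were in or above the A0 range and 1 was the lowest of all. The log2 fold change was -0.64 ± 0.41 in A10 vs A0 (adjusted p = 0.356), -1.13 ± 0.41 in BA10 vs A0 (0.0961) and -0.78 ± 0.41 in BA10 vs BA0 (1). Without BA0 replicate 2, the lowest mouse, the spread of C6 was smaller, and edgeR called BA10 below A0 (-1.13 ± 0.22, adjusted p = 0.0177). BA10 vs BA0 was then -1.19 ± 0.23 (adjusted p = 0.238). In that fit 5.42% of all genes were called higher and 2.25% lower in BA10 vs A0. This call of C6 came in 1 of 12 fits with a library left out and in 0 of the 10 other alternatives. AOS pooled over busulfan was chosen after seeing the data. It separated the 6 mice of each kind for no member (0.186% of all genes higher, 0.116% lower). By edgeR no member was called (0.0465% of all genes higher, 0 lower), and 8 (19.0%, against 15.6% of all genes) had an unadjusted p under 0.05. DESeq2 called 0 members there (1.39% of all genes).

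C8a and C8b, neighbours on chromosome 4, encode the chains of C8 that bind the growing complex, and C8g a lipocalin joined to them. C8a had 812 to 1189 CPM and C8b 354 to 585 CPM over the 12 mice, and the ratio of C8a to C8b in RPKM stayed between 1.03 and 1.64. C8g had 199, 284 and 217 CPM in A0, 204, 223 and 170 in A10, 188, 165 and 175 in BA0, and 196, 168 and 212 in BA10 (BA0 vs A0 -0.41, adjusted p = 0.104). C9, which forms the pore, had 1045, 1479 and 807 CPM in A0, 594, 912 and 577 in A10, 1033, 704 and 786 in BA0, and 859, 649 and 612 in BA10. A10 and BA10 lay 0.68 and 0.65 below A0 on the log2 scale (edgeR adjusted p = 0.128 and 0.11), with overlap. DESeq2 called C9 lower in both. C7, the component that hepatocytes are known not to make, was at 0.126 to 1.74 CPM.

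BA0 replicate 2 was lowest of its group in C2, C6, Hc, C8a, C8b and C9. It was also lowest in members of other roles, such as C1ra, C3, Cfi, Fgb and Vtn. Its deviation from the group mean on the log2 scale was -1.31 for C6 and -0.73 for Hc, against -0.24 for C9 and -0.09 for C8g. This mouse set much of the covariation of C6 with C8a and C8b. Over the 12 mice, the deviations from the group means correlated at r = 0.80 for C6 and C8a and 0.64 for C6 and C8b, but at 0.35 and 0.06 without that mouse. C8b and C9 kept r = 0.83 without it (0.78 with it). Hc had r of 0.07 with C8a and -0.05 with C8b over all 12, and of -0.44 and -0.50 without that mouse. These are descriptions over 12 libraries that share scaling and depth. In the same library Cyp2b9 and Cyp3a41a, cytochromes P450, were at 77.5 and 86.6 CPM, against 11.3 and 4.47 CPM at most elsewhere, and their part in these values was not tested.

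**Figure D4:**
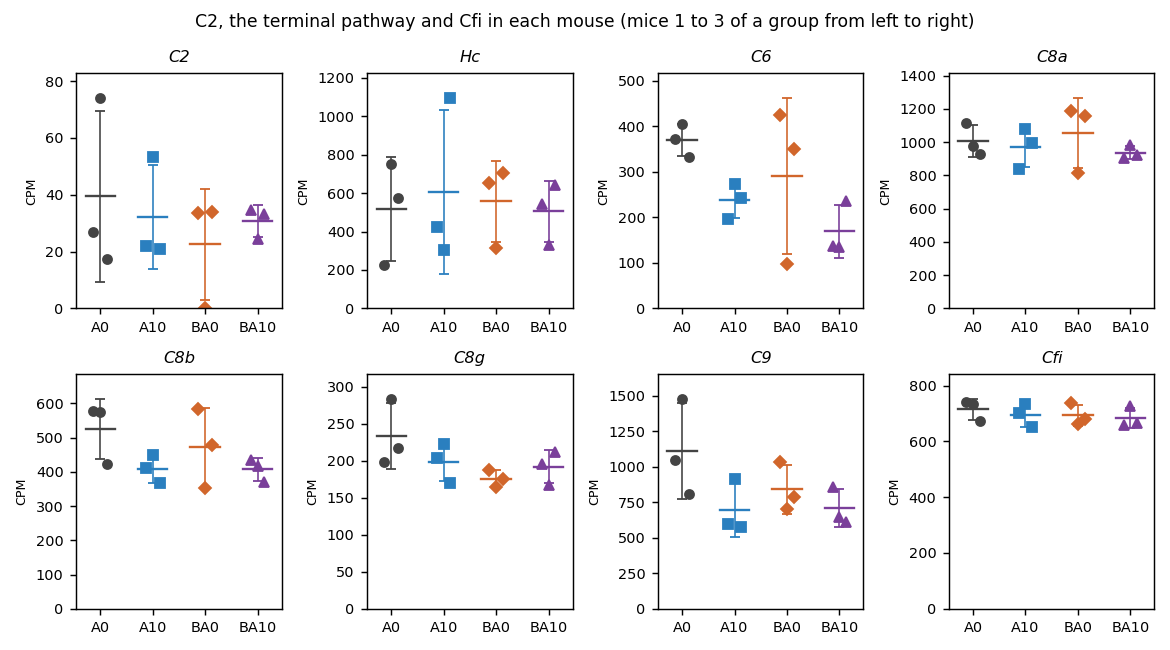
CPM of C2, the 6 terminal pathway members and Cfi in every mouse, mice 1 to 3 of a group from left to right, with the mean and 1 SD. The second BA0 mouse is lowest of its group for C2, Hc, C6, C8a, C8b, C8g, C9 and Cfi, and Cfi stays between 650 and 740 CPM in all mice.

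Of the 5 complement regulators, all lay below A0 in each treated group under TMM, with medians of -0.31, -0.31 and -0.40 in BA0, A10 and BA10, and none was called by edgeR. Vtn came closest. It had 2483, 2549 and 1924 CPM in A0, 1607, 1839 and 1771 in A10, 1896, 1671 and 1707 in BA0, and 1646, 1860 and 1703 in BA10. All treated mice were below all A0 mice. Taken singly, BA0, A10 and BA10 lay below A0 without overlap for 15.4%, 11.7% and 15.7% of all genes. The Vtn differences were -0.40, -0.42 and -0.42 for BA0, A10 and BA10 (adjusted p = 0.0687, 0.0775 and 0.0545). DESeq2 called all 3 (0.0103, 0.00875 and 0.00662) and, of the other regulators, Clu in BA10 vs A0. The 2 highest values were those of A0 replicates 1 and 2, and on RPKM Vtn in A0 replicate 3, at 1198, was within the range of the treated mice (995 to 1230).

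Serping1, which encodes the C1 inhibitor that also blocks kallikrein, had 1178, 1179 and 894 CPM in A0, 800, 821 and 1003 in A10, 860, 973 and 793 in BA0, and 814, 975 and 673 in BA10 (BA10 vs BA0 -0.09 ± 0.16, adjusted p = 1). Clu, the clusterin gene, had 1630 and 1525 CPM in A0 replicates 1 and 2 and 981 to 1197 CPM in the other 10 mice. C4bp, which encodes the C4b-binding protein, and Cfi had differences of -0.06 and -0.05 in BA0 vs A0, while on RPKM their BA0 means, 278 and 371, were above those of A0, 254 and 335. Clu and Serping1 thus had the pattern of Vtn, with A0 replicates 1 and 2 highest.

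The fibrinogen chains, which lie side by side on chromosome 3 (Fgg at 83007724-83015049, Fga at 83026076-83033627 and Fgb at 83040141-83049863), had a within-group SD of 0.13 each on the log2 scale. Fgb had 5474, 5336 and 5176 CPM in A0, 5853, 5492 and 4725 in A10, 5690, 4623 and 4683 in BA0, and 4951, 5090 and 4521 in BA10. Fgg had 4916, 4899 and 4598 CPM in A0, 4865, 4948 and 3850 in A10, 4970, 4108 and 4207 in BA0, and 4569, 4781 and 4298 in BA10. The groups overlapped in BA0 vs A0 for all 3 chains. The log2 fold changes in BA0 vs A0 were -0.08 for Fga, -0.09 for Fgb and -0.12 for Fgg, each ± 0.12 or 0.13, and for Fgb the approximate 95% interval was -0.36 to 0.17.

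The chains kept a narrow ratio to each other. In RPKM, Fga to Fgb was 0.62 to 0.735 and Fgg to Fgb 0.806 to 0.942 over the 12 mice, a span of 1.19-fold and 1.17-fold. By comparison, the ratio of Hc to C8b spanned 7.63-fold. Deviations from the group means correlated at r = 0.95 for Fgb and Fgg, 0.85 for Fga and Fgg and 0.78 for Fga and Fgb, over 12 mice that share library scaling. Genes on different chromosomes could be as close, since F2 and Plg had r = 0.92.

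Among the clotting inhibitors, Tfpi and Pros1 were above A0 and Serpinc1, Serpind1 and Proc below it under TMM, with none called by edgeR. DESeq2 called Serpinc1 and Proc in BA0 vs A0, and Serpinc1 and Tfpi in BA10 vs A0. Tfpi had 4.28, 6.79 and 7.26 CPM in A0, 8.17, 5.52 and 10.1 in A10, 8.27, 10.3 and 8.54 in BA0, and 8.68, 12 and 10.2 in BA10. All 6 busulfan mice were above all A0 mice, and the A10 mice overlapped both. The log2 fold change was 0.56 ± 0.24 in BA0 vs A0 (adjusted p = 0.157) and 0.75 ± 0.24 in BA10 vs A0 (0.0699). Tfpi is made by endothelium, and 8 liver endothelial markers, such as Stab2 and Kdr, were tested beside it. They summed to 133 to 137 CPM in A0, 184 to 250 in A10, 205 to 257 in BA0 and 242 to 316 in BA10, with none at 0. Called higher than in A0 were 4, 4 and 8 of these 8 markers in A10, BA0 and BA10, against 2.14%, 4.09% and 6.95% of all genes. Their part in the Tfpi values was not tested.

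Pros1, the cofactor of activated protein C, had 36.6, 37.6 and 38.9 CPM in A0, 39.0, 37.9 and 48.7 in A10, 45.5, 45 and 51.9 in BA0, and 43.2, 47.8 and 49.7 in BA10. The busulfan groups lay above A0 by 0.33 ± 0.11 (adjusted p = 0.0756) and 0.32 ± 0.11 (0.081). Serpinc1 had 1824 to 2085 CPM in A0 and 1563 to 1689 CPM in BA0 (-0.25, adjusted p = 0.119), with overlap on RPKM (1099 to 1193 and 1071 to 1149). Proc, the protein C gene, had 364 to 427 CPM in A0 and 322 to 349 CPM in BA0 (-0.23, 0.133), also with overlap on RPKM (216 to 257 and 232 to 242). Serpind1, which encodes heparin cofactor II, stayed between 502 and 619 CPM in all mice, and on RPKM its BA0 mean, 276, was above that of A0, 260.

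The 3 fibrinolysis members were not called by edgeR, while DESeq2 called Serpinf2 lower in BA0 and in BA10 than in A0. Serpinf2, which encodes the plasmin inhibitor, had 851, 821 and 705 CPM in A0, 714, 698 and 613 in A10, 720, 597 and 626 in BA0, and 603, 674 and 658 in BA10 (BA0 vs A0 -0.29 ± 0.11, adjusted p = 0.12). Plg, the plasminogen gene, had 2447, 2545 and 2148 CPM in A0, 2310, 2322 and 2087 in A10, 2181, 2101 and 2061 in BA0, and 2009, 2177 and 2232 in BA10. Its BA10 vs BA0 difference was 0.02 ± 0.10. Cpb2, which protects fibrin from plasmin, had 355 to 424 CPM in A0 and 300 to 361 CPM in the other mice.

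AOS after busulfan (BA10 vs BA0), the comparison on repair, called none of the 42 members by edgeR, where 0.0465% of all genes were called higher and 0.00775% lower. DESeq2 called 0 members too (0.287% of all genes). By edgeR 1 member, Cfb, had an unadjusted p under 0.05 (2.38%, against 4.44% of all genes). The median log2 fold change was -0.02, 38 members lay within 0.25 of 0, and the approximate 95% interval lay within 0.5 of 0 for 35. For F5 it was -0.11 (interval -0.34 to 0.13), and all 3 BA10 mice were below all 3 BA0 mice, as they also were for F7 (2 members, 4.76%, against 5.28% of all genes). No member had the BA10 mice all above (5.53% of all genes). Busulfan among AOS-fed mice (BA10 vs A10) also called 0 by edgeR (0.0931% of all genes higher, 0.031% lower). There 1 member, Mbl2, had an unadjusted p under 0.05 (2.38%, against 8.72%), and DESeq2 called 0 (1.2% of all genes). The groups did not overlap for 1 member higher (2.38%, against 6.65%) and 1 lower (2.38%, against 6.84%). BA0 vs A10 called 0 by edgeR as well (0 of all genes), with 1 member, again Mbl2, at an unadjusted p under 0.05 (2.38%, against 4.96%). DESeq2 called 0 members there (0.155% of all genes). The groups did not overlap for 2 members higher (4.76%, against 4.84%) and 0 lower (5.05% of all genes).

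The difference between the AOS effect with and without busulfan was called for no member by edgeR (0.031% of all genes higher and 0.0233% lower), with 7 members (16.7%, against 15.5%) at an unadjusted p under 0.05. F5 had the smallest p, with -0.58 ± 0.15 (adjusted p = 0.182), since A10 was above A0 and BA10 was not above BA0. DESeq2 called it, as the 1 member (-0.56, adjusted p = 0.0181), where it called 2.08% of all genes. With 1 library left out, edgeR's adjusted p was 0.0518 to 0.381, and no other alternative called it.

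Across the 42 members the log2 fold change in BA0 vs A0 correlated with GC content, taken from the longest annotated transcript, at r = -0.45. With the log2 transcript length implied by counts and RPKM it correlated at r = 0.45, and for A10 vs A0 the values were -0.41 and 0.52. These correlations run across genes, which are not independent replicates, and the comparisons share the A0 mice. The 10 members under 45% GC, which include F9, F13b, Klkb1 and Tfpi, had a median of 0.11 in BA0 vs A0, with 5 of 10 above 0. C9 (-0.40), Cpb2 (-0.24), Fgg (-0.12), Fgb (-0.09) and C4bp (-0.06) were the AT-rich members below A0. The 16 at or above 50%, which include Vtn, F2, Proc and Clu, had a median of -0.25, with 3 of 16 above 0. In BA10 vs BA0, which has no A0 mouse, r was 0.07 with GC content and the median of the 16 GC-rich members was 0.01. With the trends removed from the libraries, Mbl2 in BA0 vs A0 was the 1 member called in the 3 comparisons with A0. There 0.687% of all genes were called higher and 0.679% lower in BA0. For A10 these shares were 0.0164% and 0, and for BA10 2.9% and 2.1%. Mbl2 has a GC content of 49.13%, close to that of Mbl1 (49.14%).

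**Figure D5:**
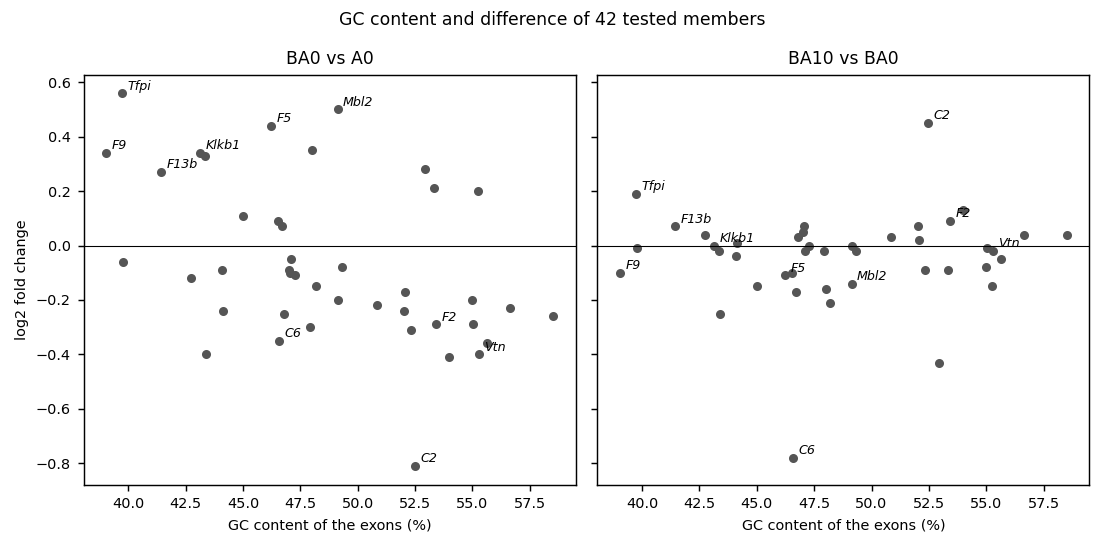
Log2 fold change of the 42 tested members against GC content (%), in BA0 vs A0 and in BA10 vs BA0. The GC content is that of the exons in the longest annotated transcript. In the first the points slope down (r = -0.45), with F9, F13b, Klkb1 and Tfpi at the upper left and Vtn and F2 at the lower right, while in the second there is no slope (r = 0.07).

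Outside the 43 members, of 26 other complement genes 23 were tested. Of these 2 were higher in BA0 and 3 in BA10 than in A0, with none lower and 0 called in A10. Of all genes 4.09% were called higher and 2.3% lower in BA0, 2.14% and 1.5% in A10, and 6.95% and 3.19% in BA10. Cd55, the membrane-bound decay-accelerating factor, had 8.42, 13.8 and 14.1 CPM in A0 against 22, 29.3 and 25.9 in BA0 and 19.4, 30.8 and 32.8 in BA10, and was increased by 1.08 and 1.19 on the log2 scale (adjusted p = 0.0352 and 0.0173). Colec10, a collectin of the lectin pathway, was increased by 1.05 in BA0 and 0.89 in BA10 (0.0357 and 0.0403), from 16.1 to 21.2 CPM in A0. With the trends removed, the BA0 call of Cd55 ended (0.89, 0.0712), as did both calls of Colec10 (0.79, 0.0844 and 0.67, 0.0958), while Cd55 in BA10 kept its call (1.03, 0.027). With any 1 library left out, Cd55 was called in 7 and 9 of 12 fits in BA0 and BA10 (adjusted p up to 0.117 and 0.0663), and Colec10 in 5 and 6 (up to 0.133 and 0.139). Cd93 was increased in BA10 (1.15, 0.0274, and 1.01, 0.0466 with the trends removed), in 8 of the 12 fits. Colec11 had 21.1 to 24.6 CPM in A0 and 28.3 to 44.1 CPM in A10 (0.62, 0.0751).

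Of 32 other clotting and fibrinolysis genes 26 were tested. Compared to A0, 3 were higher and 1 lower in BA0, 2 higher in A10, and 3 higher and 2 lower in BA10. Of all genes 4.09% were called higher and 2.3% lower in BA0, 2.14% and 1.5% in A10, and 6.95% and 3.19% in BA10. F8, the haemophilia A factor made by sinusoidal endothelium, had 5.62, 8.11 and 9.44 CPM in A0, 20.5, 14.4 and 23.2 in A10, 13.3, 19.8 and 28.7 in BA0, and 23.0, 22.2 and 22.6 in BA10. It was increased by 1.41 in BA0 (adjusted p = 0.0253), 1.32 in A10 (0.0404) and 1.55 in BA10 (0.00998). Thbd, the endothelial thrombin receptor that activates protein C, was increased by 1.74 in BA0 and 1.92 in BA10 (0.0297 and 0.0125). Both were higher in each treated group than in A0, as were the endothelial marker sums given above for Tfpi, whose part was not tested. Hgf, a relative of plasminogen made by stellate cells, was increased by 1.75 in BA0, 1.40 in A10 and 1.58 in BA10 (0.0253, 0.0489 and 0.0213). The A10 call ended with the trends removed (1.09, 0.121) and held in 1 of 12 fits with a library left out, against 8 in BA0 and 8 in BA10. The 7 stellate cell markers, each with counts in at least 1 library, summed to 133 to 215 CPM in A0, 200 to 247 in A10, 215 to 327 in BA0 and 208 to 266 in BA10. Of these markers 2 were called higher in BA0, 1 in A10 and 1 in BA10, against 4.09%, 2.14% and 6.95% of all genes. Their part in the Hgf values was not tested.

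Vkorc1, which recycles the vitamin K needed for factors II, VII, IX and X, had 141, 150 and 132 CPM in A0 and 107, 106 and 97.2 in BA0, and was decreased in BA0 (-0.45, adjusted p = 0.0312) and in BA10 (-0.33, 0.0479). F3, the tissue factor gene, was decreased in BA10 vs A0 (-1.87, 0.0277). With the trends removed the Vkorc1 differences were -0.20 (0.172) and -0.08 (0.558), while F3 stayed at -1.90 (0.0305). For F8 the BA0 and A10 calls were lost with the trends removed, at 1.00 (0.056) and 0.94 (0.114), and the BA10 call stayed at 1.16 (0.0174). With any 1 library left out, the F8 call in BA10 held in 12 of 12 fits (0.00716 to 0.0469), the BA0 call in 8 (0.0137 to 0.109) and the A10 call in 1 (0.0169 to 0.157), and the BA0 and BA10 calls of Vkorc1 in 7 (0.015 to 0.118) and 3 (0.0323 to 0.147). Thbd was called in 8 and 10 of the 12 fits in BA0 and BA10, and F3 in 9.

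Of 16 hepatocyte regulators of these genes, 1 was higher and 3 lower in BA0 than in A0. In A10 2 were higher, and in BA10 1 was higher and 2 lower. Of all genes 4.09% were called higher and 2.3% lower in BA0, 2.14% and 1.5% in A10, and 6.95% and 3.19% in BA10. In BA0, Il6st, the shared signal receptor of interleukin-6, was increased by 0.61 (adjusted p = 0.0219). Foxa1, Foxa2 and Cebpa, liver transcription factors, fell there by 0.70, 1.08 and 0.66 (0.044, 0.047 and 0.0491). Cebpa had 224, 222 and 228 CPM in A0, 199, 199 and 184 in A10, 196, 126 and 105 in BA0, and 146, 143 and 136 in BA10. With the trends removed, all 4 BA0 calls ended, with Il6st at 0.37 (0.0832), Foxa1 at -0.62 (0.0844), Foxa2 at -0.91 (0.094) and Cebpa at -0.43 (0.183). With any 1 library left out, Il6st was called in BA0 in 8 of 12 fits (adjusted p up to 0.109), Foxa1 in 3 (0.137), Foxa2 in 2 (0.145) and Cebpa in 2 (0.142). In BA10 vs A0, Il6st (0.57, adjusted p = 0.0136), Foxa2 (-1.29, 0.0217) and Cebpa (-0.67, 0.039) were called. With the trends removed, Foxa2 kept its call there (-1.12, 0.0375), while Il6st (0.34, 0.0686) and Cebpa (-0.47, 0.124) lost theirs. With a library left out, these BA10 calls held in 10, 8 and 5 of 12 fits for Il6st, Foxa2 and Cebpa. Il6ra, the interleukin-6 receptor, was increased in A10 vs A0 (0.66, 0.0404), a call that ended with the trends removed (0.57, 0.121) and held in 1 of 12 fits with a library left out. The A10 call of Il6st (0.59, 0.0401) also ended with the trends removed (0.39, 0.118) and held in 1 of 12. Of 20 acute phase genes outside the members, Apcs was decreased in BA0 vs A0 (-0.71, 0.0322) and Saa1 in BA10 vs A0 (-1.87, 0.0491). Of all genes, 2.3% and 3.19% were called lower in these comparisons. A0 replicate 1 held the highest Saa1. The Apcs call held with the trends removed (-0.71, 0.047) and in 8 of 12 fits with a library left out, and that of Saa1 ended (-1.71, 0.07) and held in 2. Platelet and megakaryocyte markers, another source of clotting proteins, summed to 1.43 to 2.91 CPM over all libraries.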

How the data were processed

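Liver RNA of 12 mice was sequenced on an Illumina HiSeq after oligo(dT) selection, and the authors aligned reads with SOAPaligner. The deposited table holds estimated counts, of which 78.6% to 80.3% per library are whole numbers (tolerance 1e-06), and RPKM, which the authors scaled by transcript length and library total. The build was mm10, per the submitters' processing notes. For the counting step and the annotation no source used here gives a name, and 8 group-mean columns were not used. Strand marking is not stated, so overlapping genes cannot be separated.

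Estimated counts were rounded and fitted in edgeR 4.0.16 (quasi-likelihood, TMM factors, filterByExpr with a minimum count of 10 and a total of 15) in R 4.3.3, with all 12 libraries in 1 fit, 12896 genes tested and Benjamini-Hochberg adjustment over all of them. Calls were made at an adjusted p under 0.05. Approximate 95% intervals used 11.47 degrees of freedom. Alternatives used DESeq2 1.42.0 and limma 3.58.1, the latter also on log2(RPKM + 0.1) for genes with at least 1 RPKM in 3 libraries, as well as other scaling factors, no filter, a replicate block, removal of length and GC trends (12219 genes) and leaving out libraries. The fits were tested on simulated data. Coordinates, exonic length and the GC content of the longest transcript came from GENCODE M21 (GRCm38), which matched 16396 of 17871 genes (91.7%) and all 43 members. Start regions came from RefSeq (GRCm38.p6). The length and GC trends were removed on this exonic length, which for some members is far above the length implied by counts and RPKM.

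The members and lists were chosen with earlier results of these data known. Values of every mouse are given for members called in any comparison, for the member of each role with the smallest p in BA0 vs A0, BA10 vs BA0 and the test of 4 groups, and for members whose groups did not overlap with a log2 fold change of at least 0.5. Other members are given by ranges, and of each list of other genes up to 4 with the smallest p in the test of 4 groups are named. Values of Mbl1, F13b and other genes beyond this rule were chosen after they were seen. The pooled comparisons, the sum of C4b and C4a and the values without BA0 replicate 2 were added after seeing the data.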

Additional observations from a re-analysis of the deposited data

How the results depend on the processing

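No fold change of a member tabulated under the 22 alternatives changed sign where it was called, while the median of the members in BA0, A10 and BA10 vs A0 turned from below to above 0 on RPKM, as given in the report. The counts of members called in comparisons with A0 did move. In BA0 vs A0, the 1 member called higher became 0 with upper-quartile factors, without a filter on low counts and without A0 replicates 1 and 2, 3 with DESeq2 and 7 with limma on RPKM, and the 0 called lower became 2 with upper-quartile factors and 6 with DESeq2. In A10 vs A0, the 2 called higher became 0 with upper-quartile factors, without the filter, with the length and GC trends removed and without A0 replicates 1 and 2, 1 with RLE factors, limma-voom and without the major urinary protein and albumin genes, and 4 with DESeq2 and on RPKM, while 3 were called lower with DESeq2. In BA10 vs A0, DESeq2 called 2 higher and 6 lower, RPKM 7 higher and 1 lower, upper-quartile factors 4 lower and the fit without the abundant genes 2 lower. In the interaction, DESeq2 called 1 member lower, where it called 0.799% of all genes lower. In the test of 4 groups, DESeq2 called 7 and RPKM 3. The 1 member called in busulfan pooled over AOS became 0 with RLE or upper-quartile factors, without the filter, without the abundant genes and without A0 replicates 1 and 2. Calls over all genes moved as well. DESeq2 called 6.62% of all genes higher and 5.85% lower in BA0 vs A0, 5.34% and 4.86% in A10 vs A0, and 8.62% and 5.76% in BA10 vs A0, RPKM called 14%, 8.83% and 16.5% higher in the 3 comparisons, and upper-quartile factors called 5.27% lower in BA0 vs A0 and 6.76% in BA10 vs A0. In A10 vs A0, 1.36% of all genes were called higher with RLE factors and with limma-voom, 1.21% with upper-quartile factors, 0.0729% without the filter, 1.45% without the abundant genes and 0.0164% with the trends removed. Without the filter 1.54% were called higher in BA0 vs A0, and without the abundant genes 3.5% lower in BA10 vs A0. In the test of 4 groups DESeq2 called 13.9% and RPKM 9.53%, and in busulfan pooled over AOS the settings that gave 0 members called 1.99% (RLE), 1.55% (upper-quartile), 1.31% (no filter), 2.07% (without the abundant genes) and 0 (without both A0 libraries) of all genes higher. The cause was not tested.

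With 1 library left out, members called higher and lower were 0 to 4 and 0 to 4 in BA0 vs A0, 0 to 3 and 0 to 4 in A10 vs A0, 0 to 3 and 0 to 6 in BA10 vs A0, and 0 to 2 and 0 to 1 in busulfan pooled over AOS, and 0 to 4 were called in the test of 4 groups. The shares of all genes in these fits were 0.0152% to 8.58% higher and 0.0152% to 5.73% lower in BA0 vs A0. In A10 vs A0 they were 0.00762% to 7.52% and 0 to 5.26%, and in BA10 vs A0 1.52% to 10.2% and 0.328% to 6.24%. In busulfan pooled over AOS they were 0.557% to 5.48% and 0.13% to 2.85%, and in the test of 4 groups 0.252% to 8.35% were called. Leaving out A0 replicate 3 gave the most calls in each comparison with A0 (6, 7 and 9 in BA0, A10 and BA10), where 14.3%, 12.8% and 16.4% of all genes were called.

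Replicate numbers did not pair the mice. Deviations of libraries with the same number correlated at -0.0739 to 0.142, over 0.1 in 3 of 18 pairs, and 5 of 12 libraries correlated best with their own number. With a replicate block, 3 members were called higher in BA0 vs A0 (F5, Masp1 and Pros1), 1 in A10 vs A0 (F5) and 1 in BA10 vs A0 (Pros1). Of all genes, 4.18%, 2.15% and 6.44% were called higher with the block in these 3 comparisons.

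With 3 mice a group, the median standard error of a member in BA0 vs A0 was 0.12 on the log2 scale, against 0.41 for C6, 0.52 for Hc and 0.95 for C2, whose differences were therefore measured least precisely.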
